A study of Mus musculus with 2 samples.

Results

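The microglia described here were non-cycling cells with little MHC class II RNA, the transcripts of the molecules that present antigen to CD4 T cells. A barcode was taken as such a cell if it had at least 1000 UMIs (unique molecular identifiers, counts of captured transcripts), at least 300 genes and at most 15% mitochondrially encoded UMIs. It also needed at least 3 UMIs of the microglial genes P2ry12, Tmem119, Siglech, Gpr34 and Fcrls, and at least 5 UMIs of the complement genes C1qa, C1qb and C1qc. Cells with 10 or more UMIs per 10,000 of H2-Aa, H2-Ab1, H2-Eb1 and Cd74 were left out, as were cells with 20 or more per 10,000 of 10 proliferation genes. The rule found 790 cells, 352 in the LTS library and 438 in the control library, of 13145 barcodes within the UMI, gene and mitochondrial limits. They were 7.28% of 4835 LTS barcodes (95% exact binomial interval 6.56 to 8.05) and 5.27% of 8310 control barcodes (4.80 to 5.77). Among all cells that met the microglia and C1q limits, cycling and MHC class II high ones included, they were 45.3% of 777 LTS cells (41.8 to 48.9), against 51.6% of 849 control cells (48.2 to 55.0). The levels of these 22 genes chose the cells and are given only as a description.

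Microglia are the resident macrophages of the brain. At rest they carry a set of sensing and matrix genes, including the purinergic receptor genes P2ry12 and P2ry13 and the fractalkine receptor gene Cx3cr1, which depends in part on TGF-beta signalling. In inflammation, degeneration and glioma they can lose part of this homeostatic set and gain genes of lipid handling, lysosomes, interferon response or antigen presentation.

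Both libraries were droplet-based single-cell RNA sequencing of brain cells from Kunming mice with G422 glioma (G422TN), mouse tumour cells implanted into the brain. The LTS mice had survived over 100 days after combined therapy and then received the same tumour in the opposite hemisphere, which the design text says they again survived, and the control mice were untreated. Tissue of both groups was taken on day 7, although the labels do not say which inoculation day 7 of the LTS group counts from. Brain tissue was dissociated with enzymes, and the cells sequenced were those between 70% and 37% Percoll, a density gradient that enriches immune cells. The labels do not say how many mice went into each library. Differences between LTS and control compare 1 library with 1 library, without replicates, so they carry no p-value and their intervals cover counting error only. Microglia of an LTS mouse and of a control mouse also differ in therapy, time since a first tumour and number of inoculations, which cannot be told apart here.

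The LTS library held 149413534 UMIs and the control library 165796852. The cells described here had a median of 10620 UMIs in LTS and 6363.5 in control. No barcode was shared between the 352 and the 438 cells, and 13 were shared between all cells within limits. Most of these cells sat well inside the MHC class II limit. At 0 UMIs of the 4 genes were 116 LTS cells (33.0%) and 165 control cells (37.7%), while 18 LTS and 27 control cells lay just inside the limit (8 to under 10 per 10,000) and 13 LTS and 23 control cells just outside it (10 to under 12). At the minimum of 3 microglial UMIs were 31 LTS and 58 control cells, and 35 LTS and 98 control cells missed it with 2.

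The deepest of these cells did not look like microglia alone. Of the cells with 20000 or more UMIs, 47 of 65 in LTS and 49 of 51 in control had 20 or more UMIs per 10,000 of a 16-gene tumour list (Postn, Mgp, Scx, Col1a1 and others). Their median C1q level was 15.6 UMIs per 10,000 in LTS and 18.4 in control, against 143 in LTS and 134 in control among the cells under 20000 UMIs. In all, 58 LTS cells (16.5%) and 93 control cells (21.2%) carried that much tumour RNA, and they held 46.5% and 47.1% of the UMIs of their library's cells. Sums over cells therefore describe a mixture. No doublet caller was run. Lymphocyte, dendritic and neuron markers were low, with summed levels in LTS and control of 18.2 and 6.12 CPM (UMI counts scaled to a common total) for T or NK genes, 14.1 and 14.7 for B cell genes, 15.4 and 15.9 for dendritic genes and 2.57 and 1.71 for neuron genes. Summed levels of the other lists in LTS and control were 314 and 280 CPM for monocytes, 53.5 and 33.5 for border macrophages, 70.9 and 68.5 for neutrophils, 54.9 and 53.8 for oligodendrocytes, 315 and 326 for astrocytes, 144 and 49.0 for endothelium and 42.4 and 9.30 for choroid plexus. The defining genes Ncr1, Ms4a1, Xcr1, Cd209a, Meg3 and Gad1 were at 0 UMIs in both libraries.

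Among the cells, the level of homeostatic genes varied widely, and a larger share of cells lay at high levels in LTS. The list held 20 genes that the selection rule did not use. Its level per cell had a 10th percentile of 38.3, a median of 137 and a 90th percentile of 573 UMIs per 10,000 in LTS, and of 37.4, 122 and 229 in control. The lower parts of the 2 distributions were close and the upper parts were not. Cells with 300 or more UMIs per 10,000 were 66 of 352 in LTS (18.8%, 14.8 to 23.2) and 27 of 438 in control (6.16%, 4.10 to 8.84). The limit of 300 was chosen after the distribution was seen. At 200 the counts were 101 LTS and 70 control cells, and at 400 they were 55 and 15. Between 250 and 350 lay 21 LTS and 15 control cells, so the limit cut through a range of levels. High cells below means only the cells past it.

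**Figure D1:**
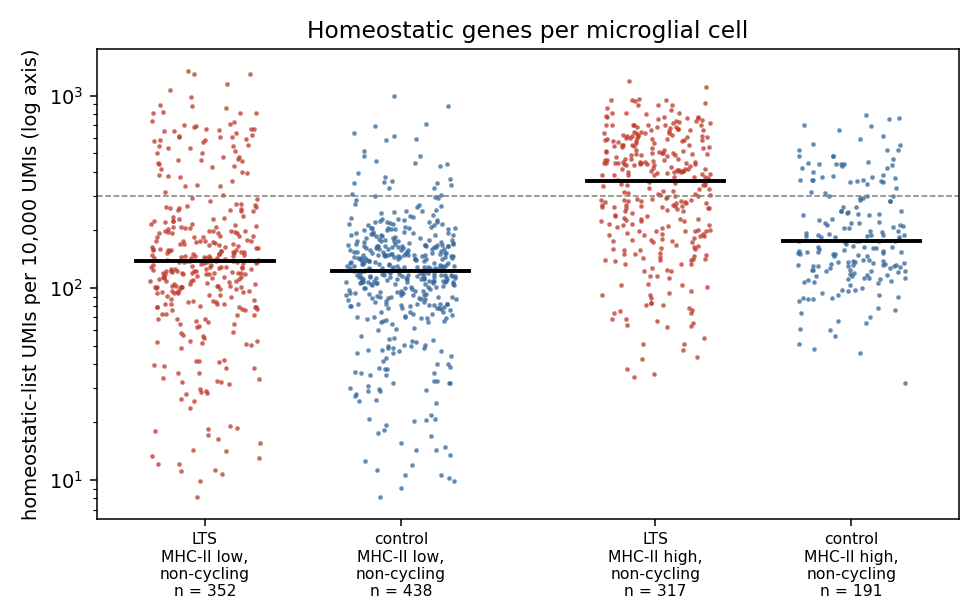
UMIs of 20 homeostatic genes per 10,000 UMIs in each non-cycling microglial cell (log axis), by library and MHC class II class, with 1 point per cell, black bars for medians and a dashed line at 300. LTS reaches above the line more often than control in both classes, with 66 of 352 against 27 of 438 MHC class II low cells.

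The difference between the libraries was also measured without tumour RNA, at like depth and without the list's most abundant gene. Without the cells that carried tumour RNA the counts were 60 of 294 LTS cells (20.4%, 15.95 to 25.5), against 16 of 345 control cells (4.64%, 2.67 to 7.42). High cells were shallow, with a median of 3106.5 UMIs in LTS and 2844 in control, against 12668 and 6536 in the remaining cells. A cell with few UMIs also needs a higher level of the 5 microglial genes to reach 3 of their UMIs, so the rule itself favours such cells at low depth. Among cells of 2000 to under 5000 UMIs, the share past 300 was 51.2% in LTS (43 of 84, 40.0 to 62.3), against 20.3% in control (25 of 123, 13.6 to 28.5). After every cell was thinned to 1000 UMIs, 67 of 352 LTS cells (19.0%) and 32 of 438 control cells (7.31%) were past the same limit. Cst3, the gene of the protease inhibitor cystatin C, made up 45.1% of the list's UMIs in LTS and 41.5% in control. Without Cst3, 150 or more UMIs per 10,000 of the remaining genes were found in 68 LTS cells (19.3%, 15.3 to 23.8), against 19 control cells (4.34%, 2.63 to 6.69).

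**Figure D2:**
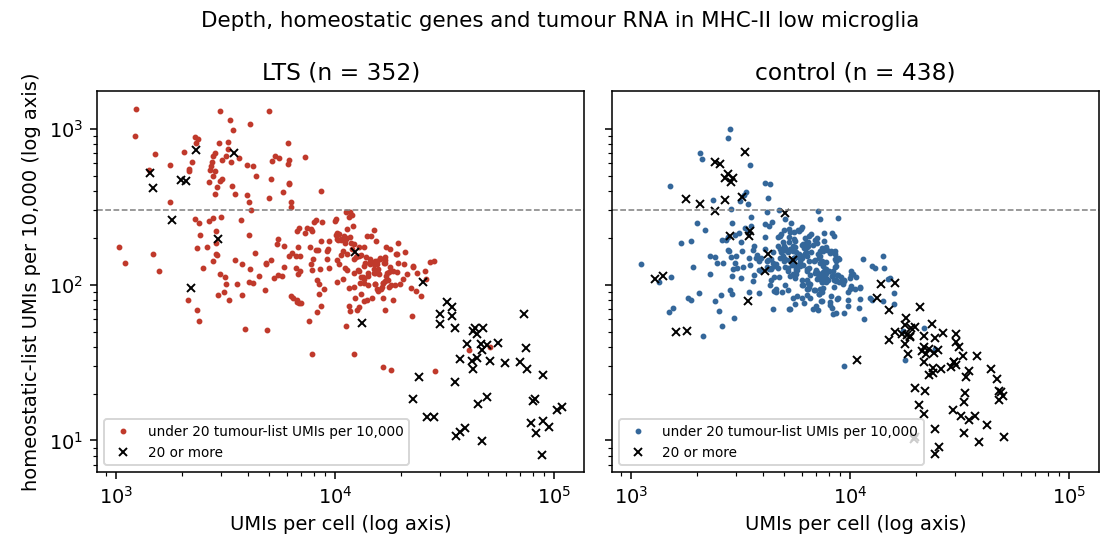
UMIs per cell (x, log axis) against homeostatic-list UMIs per 10,000 (y, log axis) for the 352 LTS and 438 control cells, with crosses for cells with 20 or more tumour-list UMIs per 10,000 and a dashed line at 300. Cells above the line have few UMIs. Of the crosses, 47 of 58 in LTS and 49 of 93 in control lie at 20000 or more UMIs, where homeostatic levels are low. Above the line, 6 of 66 LTS and 11 of 27 control cells are crosses.

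MHC class II high microglia showed the same order of the libraries. Their share past 300 was 56.8% in LTS (180 of 317, 51.1 to 62.3), against 23.6% in control (45 of 191, 17.7 to 30.2). Among cycling microglia, 11 of 108 LTS cells (10.2%) and 16 of 220 control cells (7.27%) were. A larger share of homeostatic-high cells in LTS was thus measured in both non-cycling classes and was not particular to cells with little MHC class II.

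Gene by gene, the high cells differed from the remaining cells along the whole list, as the choice of cells fixes, so these values only show its make-up. Cx3cr1 stood at 4060 CPM in high LTS cells and 791 CPM in the remaining LTS cells, and at 2934 and 864 CPM in control. Selplg, which encodes the adhesion ligand PSGL-1, stood at 1451 and 136 CPM in LTS and at 501 and 135 CPM in control. Tgfbr1, a TGF-beta receptor gene, stood at 517 and 67.0 CPM in LTS and at 251 and 55.4 CPM in control. The remaining cells of both libraries were close to each other at these genes, while the high cells of LTS carried more than those of control at these 3. Other genes did not follow this order, such as Sparc with 2634 CPM in high LTS and 2821 CPM in high control cells, Arhgap5 with 363 and 414 CPM, and P2ry13 with 388 and 389 CPM. Tumour RNA was carried by 6 of the 66 high LTS cells and by 11 of the 27 high control cells, and its part in these values was not tested. Slc2a5, a fructose transporter gene, had the widest gap in LTS, with 201 CPM in high cells and 11.9 CPM in the others. Bin1, which encodes a membrane-bending adaptor, had almost none in control, with 326 and 333 CPM.

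**Figure D3:**
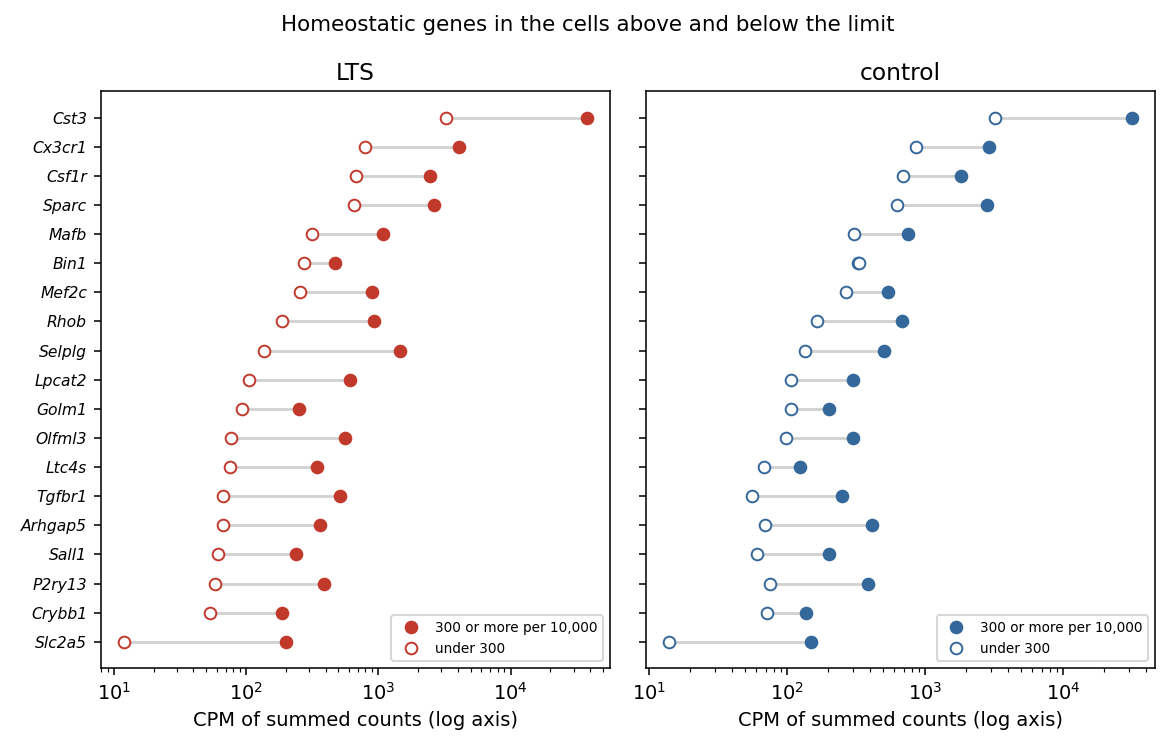
CPM of summed counts (log axis) of 19 of the 20 homeostatic genes in the cells with 300 or more list UMIs per 10,000 (filled) and under 300 (open), LTS on the left and control on the right. The open points lie at like levels in both panels (Cst3 at 3259 and 3238 CPM), and filled points lie to their right for every gene shown except Bin1 in control.

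The high cells shared features outside the list. Compared with the remaining cells of their library, they carried more immediate-early and stress genes (a median of 148 UMIs per 10,000 against 40.7 in LTS, and 132 against 40.9 in control). They carried less of the disease-associated list (159 against 268 in LTS, and 170 against 238 in control), of the lipid-handling list (23.1 against 54.5, and 18.9 against 44.1) and of the interferon-induced list (17.0 against 76.2, and 50.5 against 73.3). Mitochondrially encoded UMIs were also a smaller share, with a median of 2.98% against 5.67% in LTS and 4.01% against 6.02% in control. Over all cells, Spearman's correlation of the homeostatic with the interferon-induced list was -0.03 in LTS and 0.25 in control (-0.30 and -0.03 without tumour RNA cells). With the disease-associated list it was 0.08 and 0.20 (-0.24 and -0.13). Cells under 2500 UMIs had a median interferon-induced level of 16.6 per 10,000 in LTS and 57.2 in control, and the part of depth was not tested. The stress list holds genes that dissociation can induce, and its part in the homeostatic level was not tested. These are descriptions without a test, since the cells were chosen by their values.

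Named outside the list and with tumour RNA cells left out, Csmd3, a large membrane protein gene, had 203 CPM in high LTS cells and 2.60 CPM in the remaining LTS cells, and 99.0 and 1.42 CPM in control, from 5 counts in the high control cells. Il7r, the interleukin 7 receptor gene, had 144 and 13.8 CPM in LTS and 178 and 10.9 CPM in control. Adgrg1, the adhesion receptor gene GPR56, had 334 and 31.2 CPM in LTS and 158 and 34.6 CPM in control. The 16 high control cells held 9 counts of Il7r and 8 of Adgrg1. On the other side, Fabp5, a fatty acid carrier gene, had 1 count in high LTS cells and 0 in high control cells, against 598 and 549 CPM in the remaining cells of LTS and control. Hmox1, the heme-degrading enzyme gene, had 67.7 and 575 CPM in LTS and 39.6 and 495 CPM in control. Lgals3, the galectin 3 gene, had 45.1 and 362 CPM in LTS and 59.4 and 333 CPM in control. The high control cells held 2 counts of Hmox1 and 3 of Lgals3, and the high LTS cells 15 and 10. The 12 genes with the widest gap in each direction in both libraries also included Jun and Dusp1 (higher in high cells) and Apoc1, Cd36 and Ifi27l2a (lower).

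Summed over all cells, few genes were far apart between the libraries. Of 6737 genes with at least 20 CPM in either library, 36 (0.534%) were at least 1.5-fold higher in LTS and 38 (0.564%) at least 1.5-fold lower, together 1.1%, on a log2 scale with 5 CPM added. The median over all genes was -0.02, and 45.9% of them lay above 0 (51.2% at equal weight and 50.7% without tumour RNA cells), beside which the counts above 0 of each list are to be read. A sum gives deep cells more weight, and the counts past 1.5-fold differed with the weighting. The part of depth in this was not tested. With every cell weighted equally, 285 of 6617 genes (4.31%) were higher and 153 (2.31%) lower. With the tumour RNA cells left out of the sums 67 of 6214 genes were higher and 136 lower. Free RNA was also subtracted, with its profile taken from barcodes of at most 100 UMIs. The profile was scaled so that its tumour-list total equalled that of the summed cells, so all their tumour-list RNA was treated as free. That includes the cells with much tumour RNA, so this setting may subtract too much. With it 338 of 6451 genes were higher and 1504 lower, the median over all genes was -0.11 and 41.0% lay above 0.

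None of the 20 homeostatic genes was 1.5-fold apart in the sums, and 15 lay above 0, with a median log2 ratio of 0.12. With equal weight per cell the median was 0.49. Without the cells past 300 it was -0.02, a fall that the choice of those cells by this list fixes. Tgfbr1 had 86.3 CPM in LTS, against 59.2 CPM in control (1.46-fold, 1.25 to 1.71), and its log2 ratio was 0.51 in sums and 1.21 at equal weight. Selplg had 193 and 142 CPM (1.36-fold, 1.22 to 1.50), with 0.43 and 1.18. Cx3cr1 had 932 and 905 CPM. Bin1 and the crystallin gene Crybb1 lay the other way, at 284 and 333 CPM (0.85-fold, 0.79 to 0.92) and at 58.8 and 72.9 CPM (0.81-fold, 0.69 to 0.95). After thinning to 1000 UMIs, Tgfbr1 was seen in 16.8% of LTS and 6.85% of control cells, against 1.20% and 1.00% of tumour cells, and Selplg in 29.3% and 17.8%, against 0% and 0.6%.

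**Figure D4:**
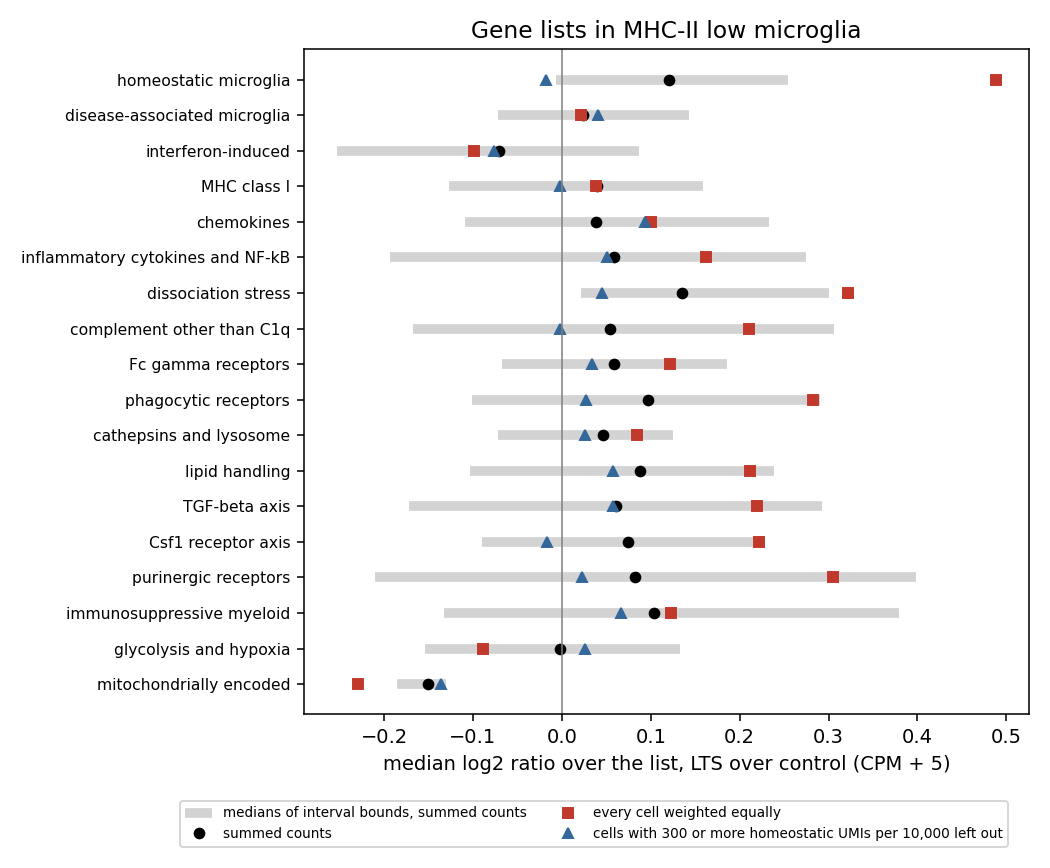
Median log2 ratio of LTS over control (CPM plus 5) for 18 gene lists in the MHC class II low cells, from summed counts (circles, with grey bars from the medians of the interval bounds), with every cell weighted equally (squares) and without the cells past 300 (triangles). The homeostatic list sits at 0.12, 0.49 and -0.02, while the disease-associated and interferon-induced lists stay near 0 in all 3.

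Immediate-early and stress genes lay on the same side as homeostatic genes, with 18 of 21 above 0 and a median log2 ratio of 0.14 (0.32 at equal weight). Without the homeostatic-high cells 13 of 21 were above 0, beside 43.6% of all genes tested, with a median of 0.045 and 0 past 1.5-fold. Rgs2, a regulator of G protein signalling, had 139 CPM in LTS, against 87.1 CPM in control (1.59-fold, 1.40 to 1.81) and was the 1 gene of the list past 1.5-fold with 5 CPM added. The folds printed with intervals are ratios without that addition. Btg2, an anti-proliferative gene, had 225 and 153 CPM (1.47-fold, 1.34 to 1.62), and Dusp1, a MAP kinase phosphatase gene, had 66.9 and 44.3 CPM (1.51-fold, 1.26 to 1.81). The heat shock gene Hsp90aa1 lay the other way, with 788 and 938 CPM (0.84-fold).

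The genes furthest apart by the naming rule included signalling genes and Igfbp3, which rested largely on 1 cell. Higher in LTS were Il10ra, the interleukin 10 receptor gene (58.8 CPM in LTS, against 37.9 CPM in control, 1.55-fold, 1.28 to 1.89), H2-T23, a non-classical MHC class I gene (249.5 and 170 CPM, 1.46-fold), and Sema4d, a semaphorin gene (62.8 and 42.3 CPM, 1.48-fold). Tbc1d20 (50.9 and 32.3 CPM) and St3gal6 (50.5 and 33.3 CPM) were the others of this kind. Igfbp3 had 53.3 and 24.7 CPM, but 1 LTS cell held 45.9% of its LTS counts, and its log2 ratio was 0.97 in all cells and -0.12 without tumour RNA cells. Eng, an endothelial TGF-beta coreceptor gene, had 59.2 and 33.3 CPM, and 1 LTS cell held 24.5%. The log2 ratio of Eng was 0.74 in sums and 0.67 at equal weight. Lower in LTS were Nmt1, an N-myristoyltransferase gene (91.1 and 163 CPM, 0.56-fold, 0.50 to 0.63), Eif3j1 (44.5 and 79.1 CPM), Uchl5 (38.9 and 62.4 CPM), Ifi202b (86.9 and 130 CPM) and Dync1i2 (110 and 158 CPM). These genes were also lower in the tumour cells of LTS than in those of control. Levels there were 70.2 and 122 CPM for Nmt1, 41.3 and 59.3 for Eif3j1 and 39.1 and 60.3 for Uchl5. For Ifi202b they were 92.4 and 123 CPM, and for Dync1i2 86.7 and 123 CPM. Hk2 (21.5 and 33.7 CPM), Ap2b1 (49.6 and 62.9 CPM) and Gtf3a (63.9 and 66.6 CPM) had the same order in tumour cells. The other genes of the rule were Hk2, Ap2b1 and Gtf3a, with ratios of 0.66, 0.70 and 0.72, and 2 chemokines.

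Chemokine genes went both ways. Ccl4, an inflammatory chemokine gene, had 206 CPM in LTS, against 312 CPM in control (0.66-fold, 0.61 to 0.72). Cxcl13, the B cell attractant, had 64.8 and 114 CPM (0.57-fold), with 26.9% of its LTS counts in 1 cell and 13.3% of its control counts in 1 cell. Ccl9 (67.6 and 46.0 CPM, 1.47-fold) and Ccl6 (124 and 92.8 CPM, 1.34-fold) were higher in LTS. Ccl2, the CCR2 ligand, was level at 450 and 456 CPM. Over the 11 chemokine genes tested the median log2 ratio was 0.04, with 6 above 0, 0 past 1.5-fold higher and 2 lower.

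Disease-associated genes were mostly within 1.5-fold between the libraries. The list had a median log2 ratio of 0.02 over 23 genes, with 14 above 0 and 0 past 1.5-fold. Without tumour RNA cells 21 of 25 were above 0, beside 50.7% of all genes tested, with a median of 0.12 and 1 gene past 1.5-fold lower. With free RNA subtracted 19 of 24 were, beside 41.0% of all genes tested, with a median of 0.16. At equal weight per cell 12 of 23 were above 0 (median 0.021). Without tumour RNA cells at equal weight 12 of 23 were too (median 0.0035), beside 53.6% of all genes tested. Apoe, the apolipoprotein of lipid transport, had 4898 CPM in LTS, against 4345 CPM in control (1.13-fold), and Spp1, osteopontin, had 2530 and 2225 CPM (1.14-fold). Trem2, the lipid-sensing receptor gene, had 488 and 452 CPM. Lyz2 (496 and 404 CPM, 1.23-fold) and Timp2 (403 and 491 CPM, 0.82-fold) marked the ends of the better measured genes. Per cell the list had medians of 238 and 233 UMIs per 10,000.

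TGF-beta and energy genes completed the comparison. Besides Tgfbr1, Tgfbr2 had 135 CPM in LTS, against 106 CPM in control (1.27-fold, 1.13 to 1.43), and the feedback inhibitors Smad7 (100.1 and 81.3 CPM, 1.23-fold) and Skil (93.3 and 71.7 CPM, 1.30-fold) were higher as well, while Tgfb1 had 163 and 150 CPM. Over the 11 TGF-beta genes tested the median was 0.06, with 8 above 0 and 0 past 1.5-fold, and 6 were above 0 among cells of at least 2000 UMIs. Hexokinase 2 (Hk2) had 87.1 and 132 CPM (0.66-fold, 0.58 to 0.75) and the lactate transporter gene Slc16a3 86.9 and 113 CPM (0.77-fold), but Pgk1 had 41.0 and 29.9 CPM (1.37-fold), and the median log2 ratio of the glycolysis and hypoxia list was -0.0026 (0.04 without tumour RNA cells). Per cell, 40.9% of LTS and 57.3% of control cells were above the pooled median of that list. Of 11 mitochondrially encoded genes 9 were lower in LTS, with a median log2 ratio of -0.15, and mt-Nd3 had 356 and 578 CPM (0.62-fold) while mt-Co1 had 8621 and 8092 CPM (1.07-fold). Tumour RNA moved with the library too, with 28.4% of LTS and 67.4% of control cells above the pooled median of the tumour list, and its part in these values was not tested.

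Interferon-induced genes were close in sums but spread differently among cells. Of 26 genes tested 8 were above 0, the median log2 ratio was -0.07 and 0 were past 1.5-fold. Without tumour RNA cells the direction turned in the sums, with 17 of 26 above 0 and a median of 0.02, and 0 past 1.5-fold. At equal weight per cell it did not turn. There 5 of 26 were above 0 with all cells (median -0.098) and 5 of 26 without tumour RNA cells (median -0.10). Per cell the list had a 10th percentile of 9.70, a median of 63.9 and a 90th percentile of 147 UMIs per 10,000 in LTS, and of 22.7, 71.1 and 129 in control, so both ends were wider in LTS. Cxcl10, the CXCR3 ligand gene, had 160 CPM in LTS, against 210 CPM in control (0.76-fold, 0.69 to 0.84) and was among the 10 most variable genes of LTS cells. Isg15, a ubiquitin-like modifier, had 100.1 and 113 CPM (0.89-fold, 0.78 to 1.01), Ifit3, an antiviral RNA-binding protein gene, had 74.2 and 86.6 CPM (0.86-fold), and Ifi27l2a had 1030 and 875 CPM (1.18-fold, 1.13 to 1.23).

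The upstream sequences of Cxcl10, Isg15 and Ifit3 are shown because the interferon-induced list, which was low in homeostatic-high cells, holds a shared motif that interferon-activated factors are known to bind. The motif searched, on both strands, was the interferon-stimulated response element, read as GAAA, any pair of bases and GAAA again. It was found in the promoters (250 bases before to 50 after the start) of 14 of the 20 list genes in the RefSeq table (70.0%), in 0 of the 15 homeostatic genes in it, in 3.99% of 27025 genes and in 3.44% of 32851 promoters. A match is a description of the letters and not evidence of binding. The 250 bases before each start (RefSeq, GRCm38.p6) are given 5′ to 3′ on the gene's strand, with matches in capitals, which for Isg15 are 3 overlapping ones and for Ifit3 2 on the opposite strand. They lie at chr5:92348890-92349139 (minus strand), chr4:156200819-156201068 (minus strand) and chr19:34583279-34583528 (plus strand).
Cxcl10: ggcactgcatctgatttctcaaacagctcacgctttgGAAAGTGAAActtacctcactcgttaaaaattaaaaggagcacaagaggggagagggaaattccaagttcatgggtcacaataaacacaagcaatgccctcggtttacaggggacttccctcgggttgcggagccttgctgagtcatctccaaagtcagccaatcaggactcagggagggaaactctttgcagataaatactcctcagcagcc
Isg15: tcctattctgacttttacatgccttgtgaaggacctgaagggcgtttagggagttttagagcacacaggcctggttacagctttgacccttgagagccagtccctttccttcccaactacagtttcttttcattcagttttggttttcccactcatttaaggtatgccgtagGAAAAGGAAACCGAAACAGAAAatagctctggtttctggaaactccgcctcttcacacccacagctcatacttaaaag
Ifit3: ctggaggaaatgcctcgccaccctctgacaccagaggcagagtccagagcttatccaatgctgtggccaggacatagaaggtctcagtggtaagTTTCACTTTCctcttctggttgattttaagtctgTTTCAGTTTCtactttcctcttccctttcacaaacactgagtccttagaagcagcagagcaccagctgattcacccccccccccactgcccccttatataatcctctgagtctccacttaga

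Against MHC class II high microglia of the same libraries, the MHC class II low cells carried less of the homeostatic and the immediate-early genes, with or without tumour RNA. The counts of most lists, the homeostatic list included, shrank or turned when cells with tumour RNA were left out. The medians of several other lists, such as complement and TGF-beta genes, also stayed below 0 in both fits. Depth moved with the class, with a median of 10620 UMIs in LTS and 6363.5 in control for MHC class II low cells, against 4024 and 4617 for MHC class II high ones. The test was edgeR's quasi-likelihood test on 4 sums of UMIs (class by library) with the library as a block, Benjamini-Hochberg adjusted over all genes and called under an adjusted p of 0.05, with 1 residual degree of freedom. Of 10792 genes, 1616 (15%) were higher and 1675 (15.5%) lower in MHC class II low cells. Without cells of tumour RNA in both classes, 102 of 9776 genes (1.04%) were higher and 227 (2.32%) lower. The tumour list had 14 of 15 genes higher in the first fit and 0 of 14 in the second, and the 10 genes named as furthest higher (Nrn1, Fbn1, Crip2, Fgfr1, Slc5a3, Sema5a, Nes, Ier5l, Col4a1 and Plp2) all missed the threshold in the second, with adjusted p from 0.23 to 0.96. Summed tumour-list levels were 1916 CPM in LTS and 2059 CPM in control MHC class II low cells, against 730 and 1127 CPM in MHC class II high ones. After thinning to 1000 UMIs 29 of 5157 genes were higher and 89 lower, and with DESeq2 302 of 9114 genes were higher and 442 lower. The p-values rest on 2 libraries and the spread shared over genes, and the classes were cut from 1 population by their MHC class II level.

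The homeostatic list had 0 genes higher and 19 of 20 lower, with a median log2 fold change of -1.13, and without tumour RNA 0 higher and 11 lower, with -0.43, and after thinning 0 higher and 12 lower, with -0.65. Cst3 had 4738 CPM in LTS and 3791 CPM in control MHC class II low cells, against 15249 and 9621 CPM in MHC class II high ones. Its log2 fold change was -1.60 ± 0.08 (SE) in all cells and -0.91 without tumour RNA. Tgfbr1 had 86.3 and 59.2 CPM, against 313 and 152 CPM, with -1.74 ± 0.14 and -1.05. Selplg had 193 and 142 CPM, against 634 and 324 CPM, with -1.56 ± 0.13 and -0.85. All 3 had the same order in both libraries and passed both fits. Cx3cr1 passed in all cells (-1.01 ± 0.10) but not without tumour RNA (-0.26, edgeR adjusted p = 0.12), and neither did Bin1, Golm1 or Crybb1 in the second fit, with values of 0.06, -0.04 and 0.09.

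Immediate-early and stress genes had 0 higher and 15 of 23 lower, and 0 higher and 13 lower without tumour RNA. Btg2 had 225 CPM in LTS and 153 CPM in control MHC class II low cells, against 747 and 381 CPM, with a log2 fold change of -1.62 ± 0.12 and of -0.93 without tumour RNA. Egr1, an immediate-early transcription factor gene, had 396 and 361 CPM, against 1067 and 850 CPM, with -1.42 ± 0.11 and -0.70. Hsp90aa1 did not pass in either fit, with 0.11 ± 0.11 in all cells. TGF-beta genes had 1 higher and 9 of 12 lower, and 0 higher and 5 lower without tumour RNA, among them Smad7 (-1.30 and -0.88) and Tgfbi, a TGF-beta-induced matrix gene (-1.87 and -1.68).

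The 10 genes named as furthest lower included 2 chemokine genes. Cxcl9, an interferon-gamma-induced CXCR3 ligand gene, had 17.1 CPM in LTS and 9.79 CPM in control MHC class II low cells, against 130 and 178 CPM in MHC class II high ones. Its log2 fold change was -3.51 ± 0.17 (edgeR adjusted p = 3.1e-89) and -2.93 without tumour RNA. Ccl5, a T cell-attracting chemokine gene, had 86.3 and 84.0 CPM, against 345 and 205 CPM, with -1.77 ± 0.14 and -1.06. H2-DMb1 and H2-DMa, which load peptides onto MHC class II, had -2.65 and -2.02 and belong to the pathway that split the classes, so they are given as a description. The others were Ms4a7, Tgfbi, Ctsh, Slc2a5, Tgfbr1 and Adgrg1, and all 10 also passed without tumour RNA. After thinning to 1000 UMIs, Ccl5 (-0.63, edgeR adjusted p = 0.15) and Adgrg1 (-0.91, edgeR adjusted p = 0.054) missed the threshold. Ms4a7 was not tested there, and Ctsh missed the threshold with DESeq2 (DESeq2 adjusted p = 0.091). MHC class I genes had 0 higher and 15 of 16 lower in all cells, and 3 lower (H2-D1, H2-Q4 and H2-Q6) without tumour RNA.

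Lipid-handling and disease-associated lists had more genes higher than lower once cells with tumour RNA were left out. The lipid-handling list had 2 higher and 3 of 16 lower in all cells, and 7 higher and 0 of 15 lower without tumour RNA. Fabp5 had 320 CPM in LTS and 315 CPM in control MHC class II low cells, against 367 and 180 CPM, with a log2 fold change of 0.16 ± 0.13 in all cells and 0.93 without tumour RNA. Plin2, a lipid droplet coat gene, had 173 and 172 CPM, against 119 and 146 CPM, with 0.32 ± 0.14 and 0.92. Hmox1 had 341 and 374 CPM, against 167 and 202 CPM, with 0.88 ± 0.13 and 1.43, and passed in both fits. The disease-associated list had 4 higher and 14 of 25 lower, and 8 higher (among them Fabp5, Ctsd, Ctsb, Cd63 and Lpl) and 3 lower (Itgax, Lyz2 and Cadm1) without tumour RNA. Arg1, the arginase gene, had 8.27 and 4.41 CPM and was at 0 UMIs in both MHC class II high sums.

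The interferon-induced list turned in the same way. It had 0 higher and 18 of 27 lower in all cells, with a median log2 fold change of -0.54, and 3 higher (Ifi27l2a, Ifitm3 and Bst2) and 0 lower without tumour RNA, with 0.20. Cxcl10, whose upstream sequence is shown above, had 160 CPM in LTS and 210 CPM in control MHC class II low cells, against 466 and 350 CPM, with -1.25 ± 0.13 in all cells and -0.36 without tumour RNA (edgeR adjusted p = 0.098). Isg15 missed the threshold in both fits, with -0.29 ± 0.14 and 0.35. Ifitm3 and Bst2 were also seen in tumour cells after thinning to 1000 UMIs, in 46.9% and 30.6% of them in LTS and 53.2% and 35.6% in control.

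**Figure D5:**
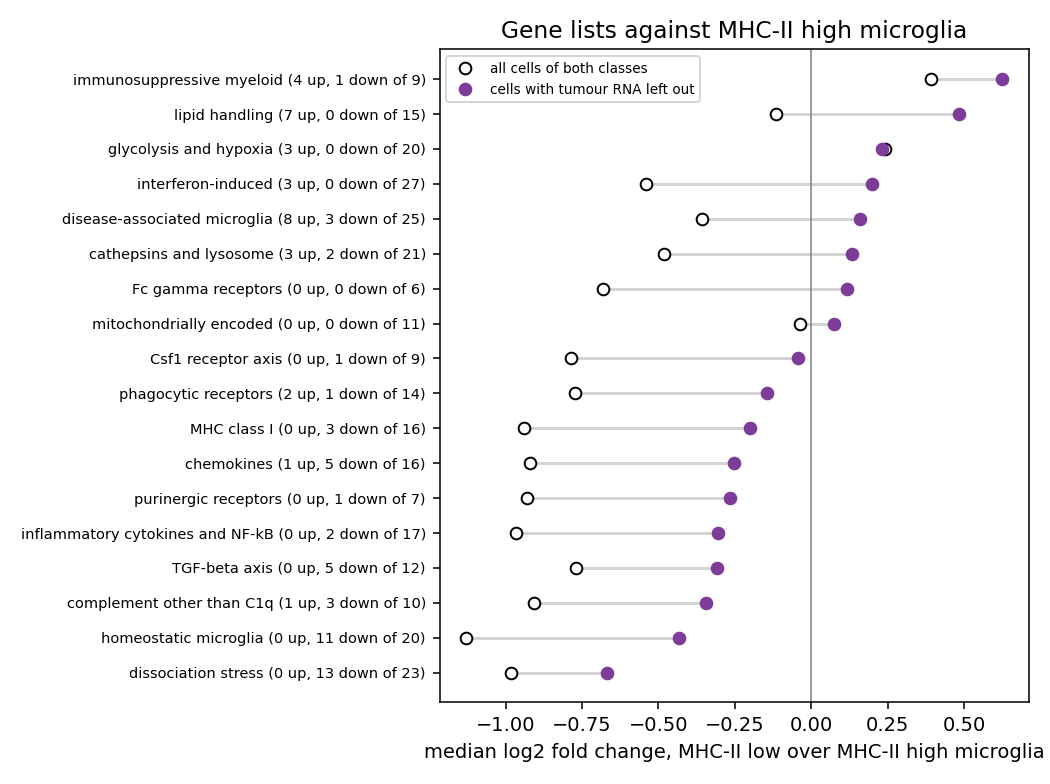
Median log2 fold change of 18 gene lists in MHC class II low over MHC class II high microglia, with all cells (open) and without cells of 20 or more tumour-list UMIs per 10,000 (filled), and the number of genes called in the filled fit beside each name. Homeostatic and dissociation stress lists stay below 0 in both (-1.13 and -0.43, -0.98 and -0.67) and lie lowest in the filled fit. The complement, TGF-beta, inflammatory, purinergic, chemokine, MHC class I, phagocytic and Csf1 receptor lists also lie below 0 in both. The lipid-handling list lies at -0.12 and 0.48.

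Against monocyte-lineage cells (under 3 UMIs of the 5 microglial genes, at least 3 of Ly6c2, Ccr2, Plac8, Ms4a4c and Ms4a7, non-cycling, 483 in LTS and 501 in control), the cells carried microglial identity genes beyond the rule. Of 11176 genes, 763 (6.83%) were higher and 1336 (12%) lower by the same test. The homeostatic list had 17 of 20 genes higher and 0 lower, and the same counts without tumour RNA (854 of 10125 genes higher, 8.43%, and 1109 lower, 11%). The classes were cut by their UMIs of the 5 microglial genes, so these p-values are no independent support for that identity. Sall1, a transcription factor gene of microglia, had 68.9 CPM in LTS and 63.9 CPM in control, against 3.78 and 6.80 CPM in monocyte-lineage cells (log2 fold change 3.58 ± 0.25, edgeR adjusted p = 4.4e-11). Slc1a3, a glutamate transporter gene also known from astrocytes, had 157 and 189 CPM, against 4.12 and 14.03 CPM (4.24 ± 0.22). Gas6, a ligand of the TAM phagocytic receptors, had 150 and 181 CPM, against 7.21 and 27.2 CPM (3.28 ± 0.22), and Lpl, lipoprotein lipase, had 152 and 140 CPM, against 6.52 and 22.97 CPM (3.30 ± 0.24). Pmp22 and Crybb1 were the other genes named as higher.

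Interferon-induced genes had 0 higher and 23 of 27 lower, and 1 higher and 11 lower without tumour RNA. Lower by the naming rule were Plbd1 (1 count in LTS and 0 in control, against 63.9 and 67.6 CPM), Chil3, a chitinase-like gene (4 counts and 0, against 67.0 and 62.9 CPM), and Gpr141, with the lymphocyte genes Klrd1, Cxcr6 and Cd3g. A UMI of a CD3 or CD79 gene was seen in 53.6% of the LTS and 8.58% of the control cells of that class, and in 17.6% and 12.1% of the microglia described here, so the control share was not above theirs. The median depth of the monocyte-lineage cells was 4132 UMIs in LTS and 3159 in control. Without the monocyte-lineage cells that had such a UMI, 948 of 10922 genes were higher and 1564 lower. The homeostatic list then had 17 of 20 higher and 2 lower, and Cxcr6 and Cd3g were no longer tested. Mitochondrially encoded genes had 10 of 11 higher and 0 lower.

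The genes that varied most between cells included Cst3 and Apoe in both libraries. After thinning to 1000 UMIs, the Fano factor (variance over mean, near 1 for counting noise, with a median over genes of 1.04 in LTS and 1.02 in control) was largest for Cst3 (23.9), Apoe (22.2) and Malat1 (12.1) in LTS and for Apoe (12.1), Cst3 (11.5) and Malat1 (6.44) in control. The next were Fth1, Tmsb4x, Spp1, Lyz2, Slc13a3, Cxcl10 and Ftl1 in LTS, and Ccl5, Tmsb4x, Cxcl13, Fth1, Hmox1, Fabp5 and Spp1 in control. Lists also moved together across cells, which share their depth and library. Spearman's correlation of the homeostatic with the stress list was 0.61 over 352 LTS and 0.53 over 438 control cells, and that of the disease-associated with the lipid-handling list was 0.87 and 0.88, with Apoe, Lpl and Fabp5 in both lists. The same coefficient of the homeostatic list with UMIs per cell was -0.67 in LTS and -0.61 in control, and -0.49 and -0.36 without tumour RNA cells.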

How the data were processed

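UMI counts per gene and barcode were deposited by the authors as unfiltered matrices without normalization, from Cell Ranger (version 4 per the file headers) and the mm10 build per the submitters' processing notes. From them, barcodes were selected by the rule, counts were summed per library and scaled to CPM, and ratios of LTS over control carry exact conditional 95% intervals. These treat UMIs as independent and leave out differences between cells and animals. Class sums were tested with edgeR 4.0.16 (TMM, filterByExpr, library as a block), with DESeq2 1.42.0 as an alternative (R 4.3.3, Python 3.11.15). Shares carry exact binomial intervals. Genes were named by size of ratio, 10 in each direction (6 for monocyte-lineage cells). For LTS over control they needed at least 50 CPM, a UMI in 10% of cells and at least the level in tumour cells. These minimums applied only in the library where the gene was higher, so its level in the other library could lie under them. Class genes needed at least 50 CPM in the higher class, an adjusted p under 0.05 and 1 sign in both libraries. Members and gene lists were chosen with earlier results of these data known. The scripts were tested on simulated data. Clec7a, Itgam and 4 other listed genes were not analysed here. Some results are not reported here.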

Additional observations from a re-analysis of the deposited data

Results flagged for a closer look

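Endothelial markers (Cldn5, Pecam1, Flt1, Cdh5, Kdr and Emcn) differed in direction between the libraries. Against MHC class II high microglia their median log2 ratio was 1.54 in LTS and -0.38 in control, and against monocyte-lineage cells 0.19 in LTS and -0.82 in control. The difference was not tested. In LTS 1 cell held 425 of the 783 list UMIs (54.3%), and without tumour RNA cells the MHC class II low cells had 29.2 CPM in LTS and 31.5 CPM in control, against 33.3 and 36.8 CPM in MHC class II high ones.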

How the results depend on the processing

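No paired analysis was possible because each group had 1 library. For LTS over control, genes at least 1.5-fold higher and lower numbered 285 and 153 of 6617 with every cell weighted equally. They numbered 148 and 76 of 15815 without a CPM minimum and 338 and 1504 of 6451 with free RNA subtracted. Without tumour RNA cells they numbered 67 and 136 of 6214. At equal weight without tumour RNA cells, added after seeing the data, they numbered 372 and 202 of 6438. With 1 CPM added before the logarithm 59 of 6737 were higher. The homeostatic median moved to 0.49 at equal weight, to -0.018 without the cells past 300 (added after seeing the data) and to 0.48 at equal weight without tumour RNA. The disease-associated median was 0.16 with free RNA subtracted, and the stress median 0.32 at equal weight and 0.42 also without tumour RNA. Igfbp3 turned to -0.12 without tumour RNA and to -0.091 at equal weight as well, and Nrn1 to -0.18 against MHC class II high microglia. Against these microglia 29 of 5157 genes were higher and 89 lower after thinning. Without tumour RNA 102 and 227 of 9776 were, and with DESeq2 302 and 442 of 9114. Against monocyte-lineage cells 360 and 495 of 6361 passed after thinning and 182 and 570 of 11176 with DESeq2. The share of all LTS and control barcodes was 6.18% and 4.39% with the MHC class II limit at 5, 8.23% and 5.88% at 20, 6.04% and 3.86% with 5 microglial UMIs and 1.41% and 0.457% after thinning. Among microglia it was 38.5% and 43.0% at 5, 51.2% and 57.6% at 20 and 24.9% and 26.8% after thinning. Of the 20 genes named against MHC class II high microglia, 10 kept their call without tumour RNA. The causes of these moves were not tested. Leaving out a library leaves no residual degrees of freedom, so the class counts have no such value.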
